A study of Homo sapiens with 18 samples.

Results

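NEDD4L, PLEKHA6, MLKL, SDCBP2 and WWC1 are 5 protein-coding genes whose RNA responded differently to triptolide (TPL) in non-transformed and transformed MCF10A-ErSrc cells. They were chosen for that difference among the 23604 genes listed in at least 1 RNA-Seq library, so the difference itself is described here and not tested. MCF10A-ErSrc is a human breast epithelial cell line that carries the v-Src oncoprotein fused to the ligand-binding part of the oestrogen receptor. Tamoxifen switches the fusion on and transforms the cells. NT cells were not exposed to tamoxifen, TAM cells were transformed with 2 µM tamoxifen, and both were then treated with DMSO or TPL (0.125 µM) for 4 h. All 4 groups come from this single line and carry the fusion, and each group (NT and TAM cells with DMSO, called NT and TAM from here on, and with TPL, called NT + TPL and TAM + TPL) has 2 RNA-Seq libraries and 2 chromatin immunoprecipitation (ChIP-Seq) samples of RNA polymerase II (RNAPII), with 2 input samples besides, 18 samples in all. The question put to these genes is how far the response to TPL depends on the state of the cell.

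TPL binds XPB, the ATPase of the general transcription factor TFIIH that opens promoter DNA, and so acts on the start of transcription by RNAPII. The 5 genes have separate roles in epithelial cells. NEDD4L is a HECT-type ubiquitin ligase whose WW domains bind PY motifs in substrates such as the epithelial sodium channel. WWC1 (KIBRA) is a WW-domain scaffold upstream of the Hippo kinases. PLEKHA6 is a pleckstrin homology domain protein of the family that includes the junctional protein PLEKHA7. SDCBP2 (syntenin-2) is a PDZ-domain scaffold related to the syndecan-binding protein syntenin-1. MLKL is the pseudokinase that permeabilizes the plasma membrane in necroptosis, a lytic form of cell death.

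The libraries held between 7461309 and 8349448 expected counts (reads assigned to genes by RSEM, which shares ambiguous reads among transcripts). Of 8 epithelial markers, 7 were above 1 FPKM in every library, with 24.2 to 61.7 FPKM for EPCAM and 41.3 to 139 FPKM for CDH1, and TP63, of basal cells, ranged from 0.28 to 24.2 FPKM. FPKM counts fragments per kilobase of transcript, scaled to the mapped fragments of the library, so it can be compared between genes. FPKM and the scaled counts behind the fits are both relative to the other RNA of the same library. A rise or fall with TPL is therefore relative throughout, and no measure of total RNA per cell was used. The leukocyte marker PTPRC reached at most 2.14 FPKM, the endothelial marker PECAM1 1.69 FPKM, and of the fibroblast markers COL1A1 reached 6.14, COL1A2 1.15 and DCN 6.69 FPKM. The summed level of the 8 epithelial markers ranged from 13238 to 15010 FPKM in NT and 3511 to 3696 FPKM in TAM libraries, and with TPL from 9500 to 11570 FPKM in NT and 1890 to 2040 FPKM in TAM cells. Within it, KRT5 ranged from 434 to 6250 FPKM and KRT17 from 742 to 7284 FPKM, and the part of these markers in the results was not tested. In bulk libraries, fewer cells with a transcript and less transcript per cell cannot be told apart.

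All 5 genes were present in every library, with at least 67 expected counts. Their mean level over the 8 libraries was 22.9 FPKM for MLKL, 25.2 for NEDD4L, 25.7 for PLEKHA6, 43.6 for WWC1 and 57.7 FPKM for SDCBP2. This placed all of them above the median of the 16948 genes tested (5.07 FPKM), at the 83.7th to 93.3rd percentile. By RNA they fell into 2 patterns. In 4 of the 5 genes both TAM libraries lay outside the range of the 6 others, above it for NEDD4L, MLKL and WWC1 and below it for PLEKHA6, as for 22.1% of the genes tested; the choice of the genes used these values. With DMSO, NEDD4L, PLEKHA6 and WWC1 were far apart between the cell states, and with TPL the states came close to each other. MLKL and SDCBP2 were closer with DMSO and moved apart with TPL.

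**Figure D1:**
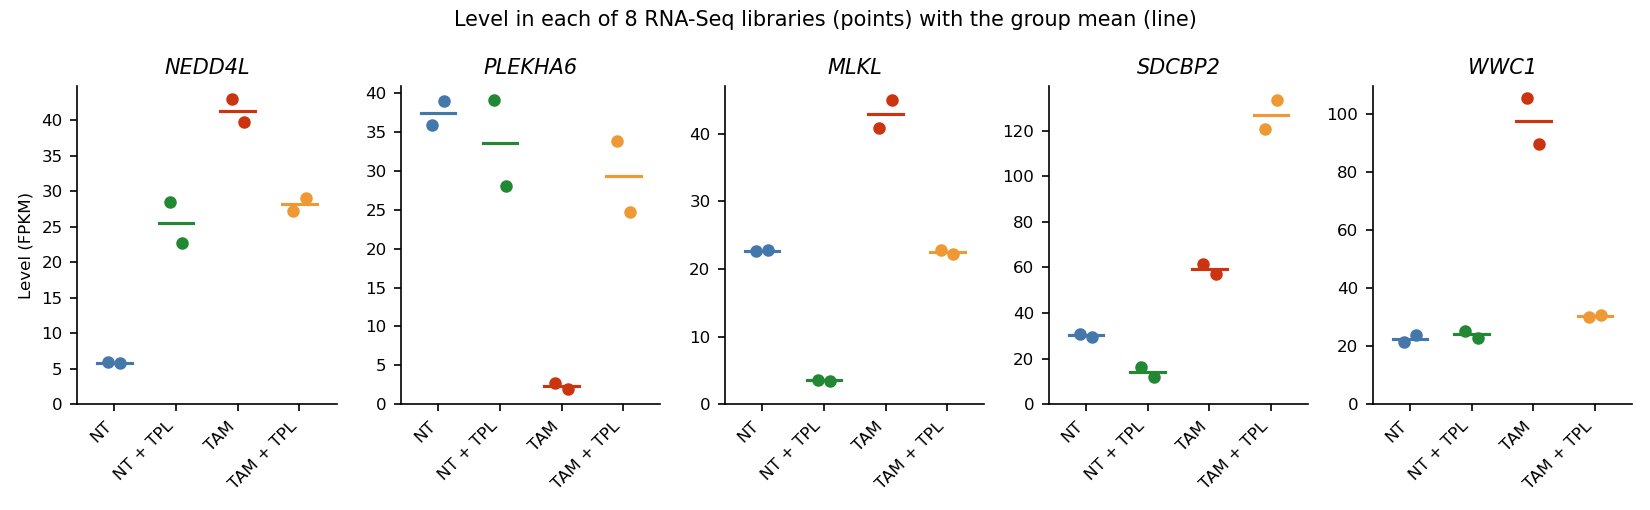
Level (FPKM, linear axes from 0) of each gene in the 2 libraries of each group, with points for libraries and lines for group means. NEDD4L stood lowest in NT at 5.86 FPKM, PLEKHA6 lowest in TAM at 2.34 FPKM, MLKL lowest in NT + TPL at 3.505 FPKM, SDCBP2 highest in TAM + TPL at 127 FPKM and WWC1 highest in TAM at 97.5 FPKM.

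NEDD4L (gene ID 23327) was higher with TPL in NT cells and lower with TPL in TAM cells. Its level was 5.92 and 5.79 FPKM in the NT libraries, against 28.46 and 22.63 FPKM once TPL was added. TAM libraries had 42.94 and 39.68 FPKM, against 27.15 and 29.08 FPKM with TPL. The NT libraries were thus below all 6 others (as for 9.04% of the genes tested), the TAM libraries above all 6 others, and the TPL-treated libraries of both states overlapped between them. With TPL the mean was 4.36-fold higher in NT cells, while in TAM cells TPL left 68.1% of it. The fitted log2 fold change with TPL was 2.10 ± 0.14 (SE, n = 2 libraries per group, as for all fits) in NT and -0.61 ± 0.13 in TAM cells. Between the states, the TAM level was 7.06-fold the NT level with DMSO and 1.10-fold with TPL. Among the genes tested, NEDD4L moved from the 54.2nd percentile of FPKM in NT to the 85.7th in NT + TPL, against the 90.5th in TAM and 87.8th in TAM + TPL. The entry sums 10 annotated transcripts. Their mean length, weighted by RSEM's abundances, was 8396 bases in both NT and 8422 and 8432 bases in the TAM libraries; with TPL it was 8339 and 8348 bases in NT and 8388 and 8396 bases in TAM cells.

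The gene lies on the forward strand at chr18:55711458-56068772 (hg19) and has 58 annotated transcription start sites (TSSs). RNAPII peaks marked 2 groups of them, 177309 bases apart. At the upstream, canonical TSS (position 55711458) the NT list had a peak of 328 bases (chr18:55711404-55711731), the TAM list a peak of 2740 bases (chr18:55711314-55714053), wider than 97.8% of that list, and the TAM + TPL list a peak of 957 bases (chr18:55711238-55712194). Shortly downstream, the NT list had another peak of 419 bases (chr18:55712401-55712819) and the TAM list another of 464 bases (chr18:55714585-55715048). The NT + TPL list had none there, although the RNA was higher in NT + TPL than in NT cells. At the internal TSS (position 55888767), within the gene body of the longer transcripts, peaks of 434, 607 and 320 bases were listed in NT, NT + TPL and TAM + TPL, and none in TAM. Among listed peaks, the internal group of TSSs was the only part of NEDD4L with one in NT + TPL cells. The lists are labelled as peaks over TSSs, so RNAPII elsewhere in the gene may not be listed. The genome sequence around both starts is given because the peaks separate them; each stretch runs from 250 bases before the TSS to 30 bases from it on, capitals mark matches to the 7 motifs described further on, and the windows are chr18:55711208-55711487 and chr18:55888517-55888796 on the forward strand.
NEDD4L canonical TSS: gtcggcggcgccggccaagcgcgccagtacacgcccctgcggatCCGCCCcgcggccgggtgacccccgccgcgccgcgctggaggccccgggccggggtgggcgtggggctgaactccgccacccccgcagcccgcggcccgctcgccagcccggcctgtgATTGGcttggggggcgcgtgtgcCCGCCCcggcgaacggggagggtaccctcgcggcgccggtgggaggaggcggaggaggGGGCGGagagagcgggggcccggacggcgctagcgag
NEDD4L internal TSS: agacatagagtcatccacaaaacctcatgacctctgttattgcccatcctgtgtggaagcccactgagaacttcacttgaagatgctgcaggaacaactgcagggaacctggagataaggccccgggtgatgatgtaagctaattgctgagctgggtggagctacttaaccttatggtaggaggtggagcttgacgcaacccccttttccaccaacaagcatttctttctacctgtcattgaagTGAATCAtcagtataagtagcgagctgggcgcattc
The canonical window had a GC content of 81.8% and 44 CG dinucleotides, and the internal window 48.6% and 4. Over the canonical windows of 14820 genes the medians were 65% and 24, so the canonical start was above 95.7% of genes in CG dinucleotides and the internal start above 7.32%.

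PLEKHA6 (gene ID 22874) was low only in TAM cells with DMSO. NT libraries had 35.88 and 38.97 FPKM, and NT + TPL libraries 39.10 and 28.12 FPKM. In TAM it had 2.73 and 1.94 FPKM, below all 6 others, and 33.94 and 24.75 FPKM where TAM cells were given TPL. The TAM mean was 6.24% of the NT mean, and with TPL it was 12.6-fold higher, at 78.4% of the NT mean. The fitted log2 fold change with TPL was 3.604 ± 0.26 in TAM and -0.17 ± 0.23 in NT cells, where the libraries overlapped; without NT + TPL replicate 2 the NT value was 0.04. PLEKHA6 went from the 89.1st percentile of FPKM in NT to the 35.7th in TAM, and stood at the 88.3rd in TAM + TPL. The gene lies on the reverse strand at chr1:204187981-204346793, and its 6 annotated TSSs had a listed RNAPII peak in none of the 4 conditions. The nearest was a peak of 215 bases in the NT + TPL list (chr1:204329363-204329577), which ended 306 bases upstream of the canonical TSS (position 204329057). In TAM + TPL cells, where the RNA was 12.6-fold that in TAM cells, no peak of the list lay within 1000 bases of a PLEKHA6 TSS.

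WWC1 (gene ID 23286) was high in TAM cells with DMSO and lower in TAM cells with TPL. Its level was 105.30 and 89.63 FPKM in the TAM libraries, above all 6 others. NT cells had 21.36 and 23.77 FPKM with DMSO and 25.23 and 22.71 FPKM with TPL, and TAM cells with TPL had 29.98 and 30.52 FPKM. The NT and NT + TPL libraries overlapped, and those of TAM + TPL lay slightly above both. TPL left 31.0% of the TAM mean, so that the TAM level was 4.32-fold the NT level with DMSO and 1.26-fold with TPL. The fitted log2 fold change with TPL was -1.74 ± 0.14 in TAM and 0.08 ± 0.13 in NT cells, the latter turning to -0.29 when libraries were scaled to equal GAPDH. The gene lies on the forward strand at chr5:167718650-167899308. At its canonical TSS, the first base of the gene, the TAM list had a peak of 3277 bases (chr5:167718062-167721338), wider than 98.4% of that list. TAM + TPL had a peak of 2607 bases (chr5:167717875-167720481), wider than 99.0% of its list, and NT a peak of 881 bases (chr5:167718300-167719180). The NT list had another peak of 310 bases just downstream (chr5:167719280-167719589). No peak was listed in NT + TPL, where the RNA level overlapped that of NT cells. The window chr5:167718400-167718679 is shown because RNAPII was listed there in 3 of 4 conditions.
WWC1 canonical TSS: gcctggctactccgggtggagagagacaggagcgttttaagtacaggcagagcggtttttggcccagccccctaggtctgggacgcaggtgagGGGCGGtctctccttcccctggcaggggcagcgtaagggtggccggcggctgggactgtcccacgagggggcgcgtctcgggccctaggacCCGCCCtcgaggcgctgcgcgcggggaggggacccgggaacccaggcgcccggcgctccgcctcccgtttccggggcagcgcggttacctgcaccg
It had 72.1% GC and 28 CG dinucleotides, above the median of genes.

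MLKL (gene ID 197259) was lower with TPL in both states, and more so in NT cells. In NT cells it went from 22.72 and 22.74 FPKM with DMSO to 3.59 and 3.42 FPKM with TPL. In TAM cells it went from 40.85 and 45.01 FPKM to 22.76 and 22.25 FPKM. The NT + TPL libraries were below all 6 others (9.97% of genes), the TAM libraries above all 6 others, and NT and TAM + TPL overlapped. TPL left 15.4% of the mean in NT and 52.4% in TAM cells, with fitted log2 fold changes of -2.75 ± 0.14 and -0.98 ± 0.12. The TAM level was 1.89-fold the NT level with DMSO and 6.42-fold with TPL. The gene lies on the reverse strand at chr16:74705753-74734858, with the canonical TSS at position 74734760. Peaks over it were 1037 bases wide in NT (chr16:74734112-74735148), 563 in TAM (chr16:74734603-74735165) and 909 in TAM + TPL (chr16:74734357-74735265). None was listed in NT + TPL, the condition with the least MLKL RNA. The window at the most upstream TSS of this group (position 74734858, reverse strand, chr16:74734829-74735108) is shown because it lies within all 3 peaks.
MLKL upstream TSS: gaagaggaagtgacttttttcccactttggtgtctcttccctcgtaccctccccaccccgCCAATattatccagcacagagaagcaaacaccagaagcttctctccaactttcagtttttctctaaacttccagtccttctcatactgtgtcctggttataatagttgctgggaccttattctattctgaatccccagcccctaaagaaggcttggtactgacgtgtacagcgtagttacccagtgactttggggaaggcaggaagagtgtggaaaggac
It had 47.5% GC and 4 CG dinucleotides, above only 7.32% of genes in CG dinucleotides.

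SDCBP2 (gene ID 27111) was lower with TPL in NT cells and higher with TPL in TAM cells. In NT cells it had 30.88 and 29.67 FPKM with DMSO and 16.44 and 11.96 FPKM with TPL. TAM cells had 61.32 and 57.18 FPKM with DMSO and, with TPL, 120.58 and 133.55 FPKM, above all 6 others (9.05% of genes). None of the 4 groups overlapped another, and the share of all genes for which this holds is not given here. TPL left 46.9% of the mean in NT cells and the mean was 2.14-fold higher in TAM cells, with fitted log2 fold changes of -1.101 ± 0.16 and 1.05 ± 0.15. The TAM level was 1.96-fold the NT level with DMSO and 8.95-fold with TPL. Reads could be shared with 2 neighbouring entries. The readthrough transcript FKBP1A-SDCBP2 had at most 19.07 expected counts, and the antisense gene SDCBP2-AS1 had 6 to 17 with DMSO and 42 to 59 with TPL, against 144 to 1733 for SDCBP2; whether the counting used strand is not given in the sources used here, so reads of SDCBP2 and its antisense gene cannot be told apart.

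The gene lies on the reverse strand at chr20:1290553-1309783 and had RNAPII at 2 starts, 3270 bases apart. At the canonical TSS (position 1309783) a peak was listed in TAM (280 bases, chr20:1309627-1309906) and TAM + TPL cells (333 bases, chr20:1309641-1309973), and none in NT or NT + TPL. These are the conditions with the highest RNA levels. At internal TSSs (positions 1306513 and 1306351) all 4 lists had a peak: 764 bases wide for NT and 1033 for TAM, and with TPL 831 bases for NT and 1170 bases for TAM cells. The peak of NT + TPL (chr20:1305673-1306503) held the more downstream of them only. The NT list had another peak of 303 bases just upstream of these TSSs (chr20:1306654-1306956). The windows chr20:1309754-1310033 and chr20:1306484-1306763, on the reverse strand, are given because listed RNAPII differed between them.
SDCBP2 canonical TSS: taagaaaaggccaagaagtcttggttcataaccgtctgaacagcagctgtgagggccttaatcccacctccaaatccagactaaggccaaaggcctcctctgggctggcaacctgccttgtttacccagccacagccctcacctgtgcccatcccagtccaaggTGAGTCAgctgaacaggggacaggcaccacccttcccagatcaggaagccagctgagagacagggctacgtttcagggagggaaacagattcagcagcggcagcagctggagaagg
SDCBP2 internal TSS: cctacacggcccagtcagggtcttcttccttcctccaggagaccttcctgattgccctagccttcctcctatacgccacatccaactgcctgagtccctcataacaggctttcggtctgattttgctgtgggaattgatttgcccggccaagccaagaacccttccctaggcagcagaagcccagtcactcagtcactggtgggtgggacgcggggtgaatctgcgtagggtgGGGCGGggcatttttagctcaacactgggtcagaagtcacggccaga
They had 56.4% and 57.1% GC, with 3 and 9 CG dinucleotides.

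**Figure D2:**
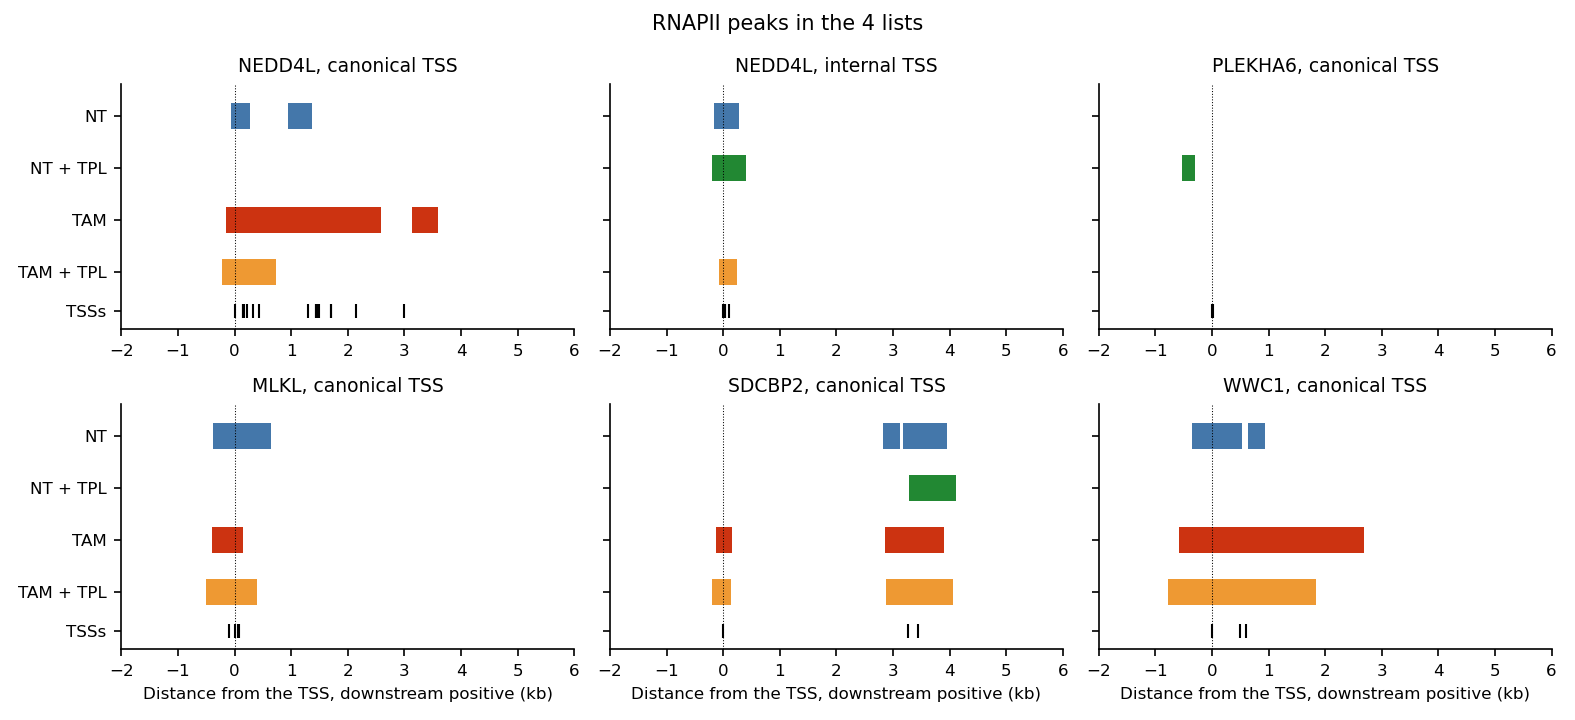
RNAPII peaks (bars) in the 4 lists by distance in kb from a TSS of each gene, with annotated TSSs as ticks. NT + TPL had no peak over the canonical TSS of any of the 5 genes, and kept one at the internal starts of NEDD4L and SDCBP2.

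The peaks are a measurement that did not enter the choice of the genes. Canonical TSSs of the 5 genes were within a listed peak for 3 genes in NT (63.8% of 14821 genes), 0 genes in NT + TPL (50.9%), 4 genes in TAM (56.2%) and 4 genes in TAM + TPL (50.02%). Counting any annotated TSS, 4 genes had a peak in NT (68.0%), 2 genes in NT + TPL (54.7%), 4 genes in TAM (62.0%) and 4 genes in TAM + TPL (53.8%). With a TSS within 1000 bases of a peak, NT + TPL had 3 of the genes (58.4% of all genes). NT (71.8%), TAM (68.6%) and TAM + TPL (57.8%) had 4 each, so under this rule NT + TPL was near the share of all genes. NEDD4L, MLKL and WWC1 had a peak at the canonical TSS in every list but that of NT + TPL, as did 428 genes (2.89%), and SDCBP2 only in TAM and TAM + TPL, as did 40 genes (0.270%). Of the 8057 genes with a canonical peak in both NT and TAM cells, 5.31% kept it with TPL in TAM cells only and 4.903% in NT cells only. The lists hold no height or read count and 1 list stands for each condition, so absence from a list has no replicate check. By their labels they hold peaks over TSSs, so peaks away from a TSS may have been left out. Neighbouring peaks were listed apart in NT at NEDD4L, WWC1 and SDCBP2 and in TAM at NEDD4L. Widths therefore also depend on how peaks were split. The names of the peaks carry a cutoff of 0.02 for NT, NT + TPL and TAM + TPL and a q of 0.1 for TAM, so the TAM list may have been called at another threshold. The names also carry replicate 1 in every list, so a list may rest on that replicate alone, and a peak listed or absent may then be that of 1 sample.

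The windows were searched on both strands for 7 motifs, and the matches are a description of the letters only. TATAAA (6.63% of 14820 canonical windows), GGAATG, bound by TEAD factors (10.2%), and the STAT motif TTCNNNGAA (5.79%) matched none of those shown. CCAAT (35.5% of windows) matched at NEDD4L's canonical TSS and at MLKL, and GGGCGG, the GC box (68.0%), at NEDD4L's canonical TSS with 3 matches, at WWC1 with 2 and at SDCBP2's internal TSS. TGANTCA, a loose form of the AP-1 motif that takes any middle base (4.74%), matched at NEDD4L's internal TSS and at SDCBP2's canonical TSS, starting 6 and 86 bases before the start. The letters were TGAATCA at NEDD4L and TGAGTCA at SDCBP2, so the matches differ in that base. CACGTG, the E-box (9.20%), matched only at PLEKHA6, whose window is not printed.

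**Figure D3:**
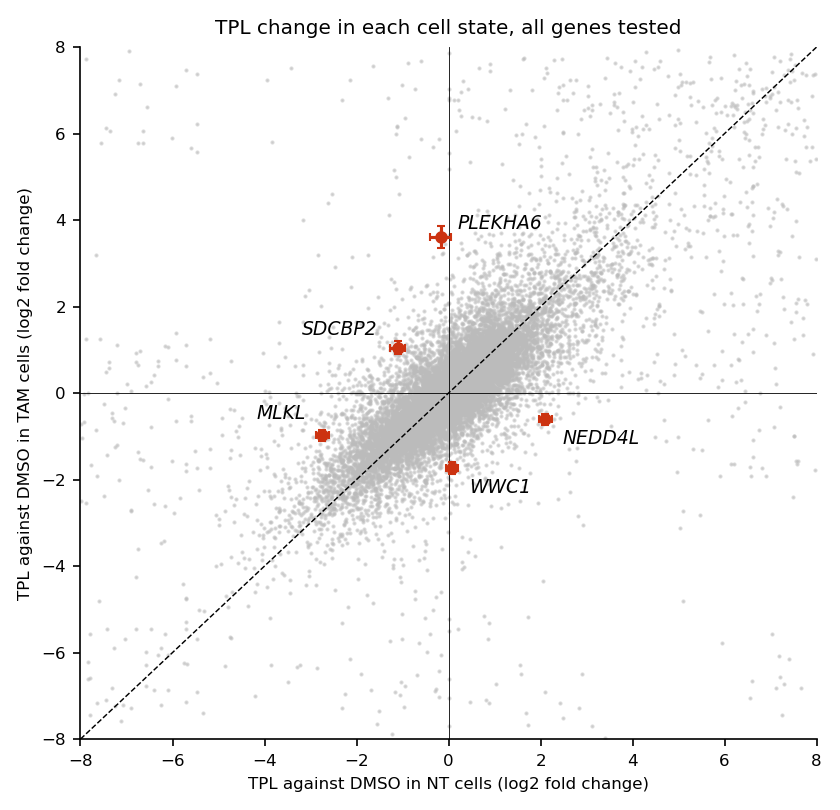
Fitted log2 fold change with TPL in NT cells (horizontal) and TAM cells (vertical) for 16948 genes (grey; 305 lie beyond the axes of ±8) and for the 5 genes (red, bars ± SE), with the line of equal change dashed. NEDD4L at 2.10 and -0.61 and SDCBP2 at -1.101 and 1.05 changed in opposite directions, and all 5 lie away from the line.

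The TPL changes in the states were also compared for all genes. With edgeR's adjusted p at 0.05 or less, 28 of the 16948 genes (0.165%) differed in their TPL change. The stricter rule, an adjusted p of at most 0.001 with a log2 difference of at least 1.2, was passed by 0. Ordered by p, NEDD4L had rank 2, PLEKHA6 rank 5, MLKL rank 11, SDCBP2 rank 12 and WWC1 rank 13, all on the measure that chose them. The difference, as log2 change in TAM minus that in NT cells, was 3.77 ± 0.34 (SE) for PLEKHA6, 2.15 ± 0.22 for SDCBP2, 1.76 ± 0.18 for MLKL, -1.82 ± 0.19 for WWC1 and -2.71 ± 0.19 for NEDD4L. By size alone their ranks lay between 602 and 1499. The median difference of all genes was -0.02. Leaving out any single library kept the sign for each gene, with ranges of 3.51 to 4.03 for PLEKHA6 and -2.84 to -2.57 for NEDD4L. The genes were chosen for this difference in the same libraries, so a kept sign is no separate support. With TPL, the libraries of NEDD4L, MLKL and SDCBP2 did not overlap those with DMSO in NT cells (69.1% of all genes did not), nor did those of any of the 5 genes in TAM cells (74.7%). NEDD4L and SDCBP2 changed in opposite directions with no overlap in either state, as did 3.03% of genes. The TPL change in TAM cells and the comparison of TAM with NT cells share the TAM libraries with DMSO, so low values in those raise the former and lower the latter.

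Averages over both arms come from the same 8 libraries that chose the genes. They are given as a description, and the edgeR calls on them further on are no independent test of these genes. Where 1 group stands apart from the other 3, as TAM does for PLEKHA6 and WWC1, both averages restate the distance of that group. SDCBP2 was higher in TAM than in NT cells by 2.06 ± 0.11 on the log2 scale (SE) averaged over DMSO and TPL, with 0.98 in the former and 3.14 in the latter. MLKL was higher by 1.82 ± 0.09, with 0.94 and 2.71. For these genes the distance between the states was thus present in both arms and larger with TPL. NEDD4L averaged 1.48 ± 0.10, made of 2.84 with DMSO and 0.12 with TPL, and WWC1 1.22 ± 0.10, made of 2.13 and 0.31. PLEKHA6 averaged -2.10 ± 0.17, made of -3.99 and -0.21. For NEDD4L, PLEKHA6 and WWC1 the average therefore came mostly from the arm with DMSO. For SDCBP2 and WWC1 all 4 TAM and TAM + TPL libraries were above the 4 NT and NT + TPL libraries, and for NEDD4L, PLEKHA6 and MLKL some of them overlapped. The share of all genes separated in this way is not given here, so nothing is read from it.

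TPL averaged over both states gave 1.72 ± 0.17 for PLEKHA6, -1.86 ± 0.09 for MLKL, 0.75 ± 0.10 for NEDD4L, -0.83 ± 0.09 for WWC1 and -0.02 ± 0.11 for SDCBP2, whose changes in the states were opposite. The calling rule, an adjusted p of at most 0.001 with a log2 fold change of at least 1.2 (edgeR's quasi-likelihood test, adjusted over all genes tested), marked all 5 genes for the average of TAM against NT cells (1.78% of genes) and PLEKHA6 and MLKL for that of TPL (10.1%). Nothing is read from these counts, since the same libraries chose the genes. With 1 library left out, TAM against NT was called in 7 of 8 fits for MLKL, 2 for NEDD4L and SDCBP2, 1 for PLEKHA6 and 0 for WWC1, and the average TPL change in 8 of 8 for MLKL and 2 of 8 for PLEKHA6. Scaling to equal GAPDH lowered TAM against NT by 0.35 in the median of all genes, and then NEDD4L (1.14) and WWC1 (0.87) were not called.

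Between the 5 genes, WWC1 and PLEKHA6 ran nearly opposite over the 8 libraries (Pearson r of log2 CPM, counts scaled to the library total, -0.98), and MLKL and SDCBP2 had the highest positive r (0.74). These are descriptions over libraries that form only 4 groups and were partly chosen on, so no p is given. Among 14071 genes with a mean of at least 1 FPKM, the 3 most like each gene were named by the same r. For MLKL they were LAMB3, which encodes a chain of laminin-332 (r = 0.99), TOGARAM1 (0.98) and MTHFD1L, an enzyme of mitochondrial folate metabolism (0.98). LAMB3 went from a mean of 276 FPKM to 34.8 FPKM with TPL in NT cells and from 442 FPKM to 303 FPKM in TAM cells. For SDCBP2 they were YARS1, the cytosolic tyrosyl-tRNA synthetase (0.99), ADGRE2, an adhesion receptor (0.99), and MMP14, a membrane-bound matrix metalloproteinase (0.97). MMP14 went from 54.5 to 37.5 FPKM with TPL in NT cells and from 105 to 187 FPKM in TAM cells. For NEDD4L they were an entry for a single EED transcript (0.98), PARP14 (0.98) and ABTB3 (0.97), which went from 0.99 to 5.21 FPKM in mean level with TPL in NT cells and went from 14.1 to 9.59 FPKM in TAM cells. For PLEKHA6 they were TMEM80 (0.98), SBSN (0.97) and the transcription factor gene TFCP2L1 (0.97). TFCP2L1 had 10.8 FPKM in NT, 2.65 in TAM and 11.3 FPKM in TAM + TPL. For WWC1 they were an entry for a single CLTA transcript (0.98), LETM2 (0.98) and the endocytic adaptor gene DAB2 (0.98), which had 3.64 FPKM in TAM and 0.49 to 0.77 FPKM in the other groups. The entries for single transcripts were listed at 0 in the NT libraries and rest on RSEM's split between transcripts. The CLTA entry was also at 0 in NT + TPL and TAM + TPL, with a mean of 5.8 FPKM in TAM, so its r rests on that group. TOGARAM1 was at 0 in NT + TPL and had means of 0.965 to 2.07 FPKM in the other groups.

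Genes of the same families and pathways were followed in 6 lists of 85 genes in all, of which 81 passed the filter on low counts. HECW1, HECW2 and AMOT were below it and the necroptosis kinase gene RIPK3 was listed in no library. With TPL in NT cells, 10 of the 81 rose and 33 fell (adjusted p at or under 0.05), against 17.2% and 19.8% of all genes tested. In TAM cells 8 rose and 24 fell, against 14.3% and 18.6%. At the stricter rule, 2 rose and 10 fell in NT cells (1.22% and 2.71% of all genes), and 1 rose and 6 fell in TAM cells (0.844% and 2.04%). With any 1 library left out, the stricter rule gave 0 to 1 higher and 0 to 2 lower in NT cells, and 0 to 1 higher and 0 to 7 lower in TAM cells; with the replicate block it gave 0 in each. The shares of all genes in these alternative fits are not given here, so nothing is read from their counts. The median log2 fold change of the 81 was -0.43 in NT and -0.38 in TAM cells, beside 0.09 and 0.05 over all genes. The TPL change differed between the states for 1 of the 81, PLEKHA7 (edgeR, adjusted p at or under 0.05), beside 0.165% of all genes, and for 0 at the stricter rule. With edgeR, 11 had an unadjusted p under 0.05. DESeq2 gave 5 higher and 2 lower at an adjusted p of 0.05, and 2 higher at the stricter rule. The shares of all genes for the unadjusted p and for DESeq2 are not given here, so nothing is read from these counts.

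**Figure D4:**
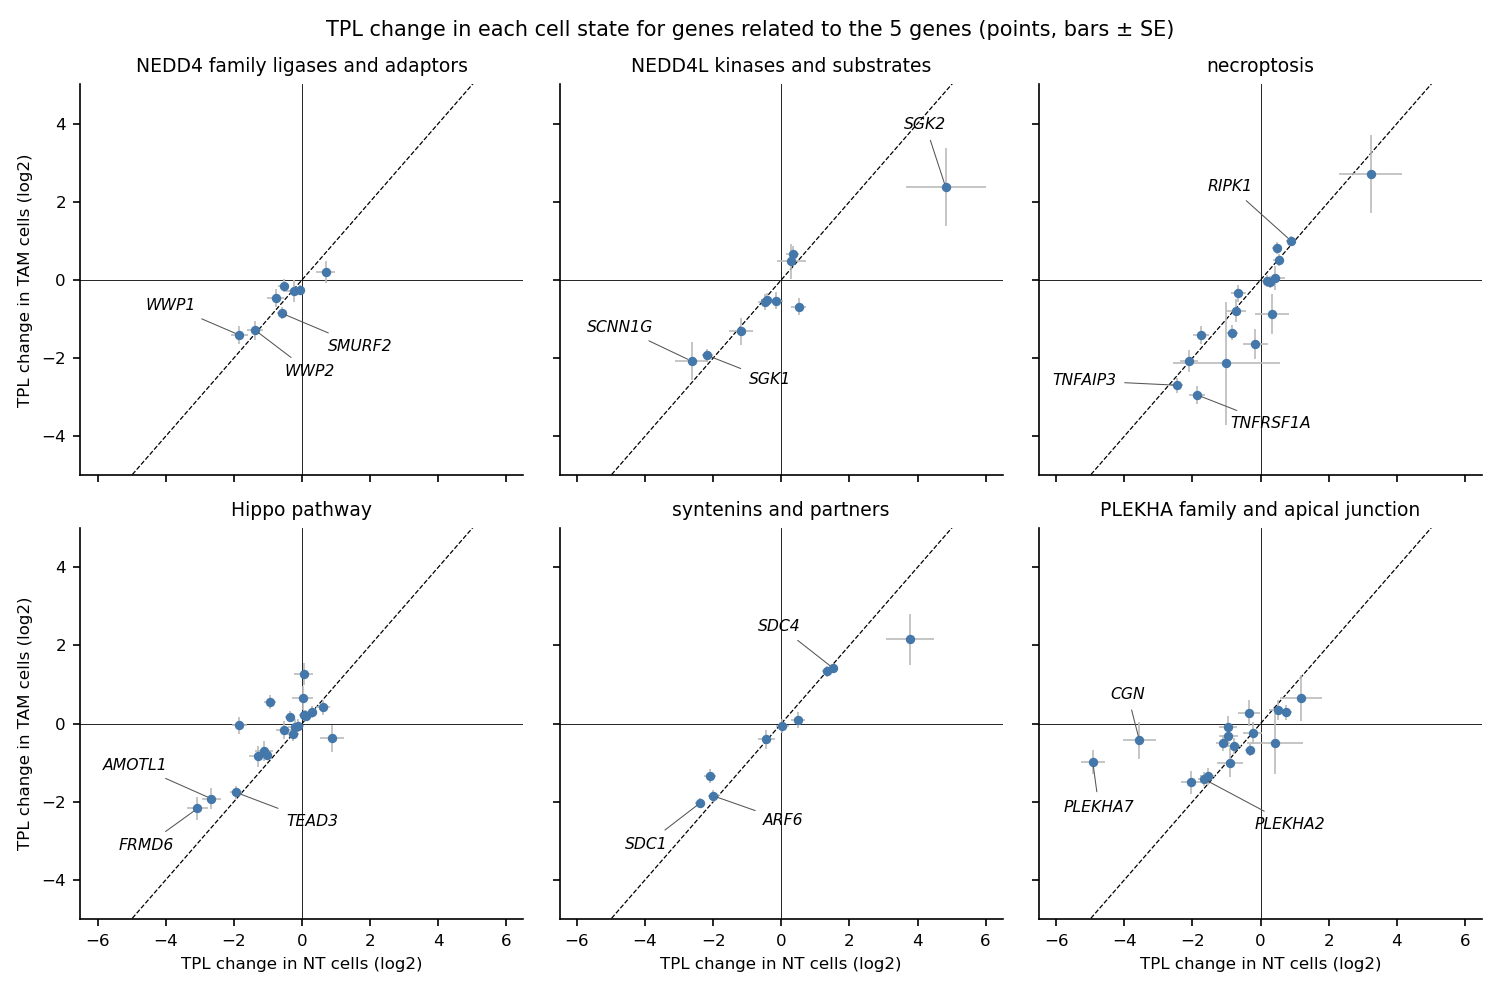
Fitted log2 fold change with TPL in NT cells (horizontal) and TAM cells (vertical) for the 81 tested genes of the 6 lists, with bars ± SE and the line of equal change dashed. Most points lie near the line, and PLEKHA7, at -4.92 in NT and -0.98 in TAM cells, lies well above it.

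Of 8 tested ligases and adaptors of the NEDD4 family, 0 rose and 5 fell with TPL in NT cells, and 0 rose and 3 fell in TAM cells. WWP1 fell in NT cells (log2 change -1.84 ± 0.24, edgeR adjusted p = 0.00193) and in TAM cells with -1.41 ± 0.24 (0.00559). WWP2 (-1.37 ± 0.24 in NT, -1.29 ± 0.24 in TAM cells) and SMURF2, a ligase for SMAD proteins and TGF-β receptors (-0.60 ± 0.15 and -0.85 ± 0.15), also fell in both. NEDD4, the closest relative, had 0.70 in NT (adjusted p = 0.0884) and 0.21 in TAM cells, which did not pass. Of 10 genes for kinases and substrates of NEDD4L, 1 rose and 3 fell in each state. SGK1, the kinase that phosphorylates NEDD4L, went from 71.51 and 89.27 FPKM in NT to 17.86 and 17.88 FPKM in NT + TPL, and from 57.52 and 64.35 FPKM in TAM to 15.59 and 17.55 FPKM in TAM + TPL. It fell in both states (adjusted p = 0.00034 and 0.000508). SCNN1G, the γ subunit of the epithelial sodium channel, fell in NT (-2.63 ± 0.50) and TAM cells (-2.07 ± 0.49). SGK2 rose in NT cells (4.83 ± 1.17, adjusted p = 0.0188), from 0.06 and 0 FPKM to 0.67 and 1.47 FPKM, on at most 23 expected counts.

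In the necroptosis list, 4 of 17 tested genes rose and 5 fell in NT cells, and 3 rose and 6 fell in TAM cells. RIPK1, the kinase that starts the necrosome, rose by 0.89 ± 0.13 in NT (adjusted p = 0.00287) and 1.003 ± 0.13 in TAM cells (0.00201), where MLKL was lower with TPL. TNFRSF1A, the TNF receptor, fell in NT (-1.87 ± 0.23) and TAM cells (-2.94 ± 0.24), as did TNFAIP3 (A20), a ubiquitin-editing enzyme (-2.45 ± 0.18 and -2.69 ± 0.19). In the syntenin list, 3 of 9 rose and 3 fell in both states. The syndecan gene SDC1 fell in NT (-2.38 ± 0.14) and TAM cells (-2.03 ± 0.14), and SDC4, another syndecan, rose (1.52 ± 0.12 and 1.42 ± 0.12). ARF6, a small GTPase that works with syntenin-1 in endosomes, fell (-1.99 ± 0.16 and -1.85 ± 0.16). Each of these 3 moved the same way in both states. The comparison of TAM with NT cells was not planned for listed genes, and SDC1 was picked for it after its values were seen. SDC1 was 1.38 higher on the log2 scale in TAM than in NT cells averaged over DMSO and TPL (adjusted p = 0.000196, edgeR). The calling rule marked 1.78% of all genes in this comparison.

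Of 20 tested Hippo genes, 1 rose and 8 fell in NT cells and 1 rose and 4 fell in TAM cells. FRMD6 fell in NT (-3.07 ± 0.30) and TAM cells (-2.17 ± 0.29). AMOTL1 (-2.66 ± 0.27 and -1.92 ± 0.26) and TEAD3, a DNA-binding partner of YAP1 (-1.93 ± 0.18 and -1.76 ± 0.17), fell in both states as well. Of the 17 PLEKHA and apical junction genes, 1 rose and 9 fell in NT cells, and 0 rose and 5 fell in TAM cells. PLEKHA2 fell in NT (-1.65 ± 0.18) and TAM cells (-1.42 ± 0.18). CGN (cingulin, of tight junctions) fell in NT cells (-3.56 ± 0.47, adjusted p = 0.002) and had -0.43 ± 0.47 in TAM cells, where it was already at 0.44 FPKM in both libraries. The difference was 3.13 ± 0.66 and did not pass (adjusted p = 0.176). PLEKHA7, which works at the zonula adherens, had 5.54 and 6 FPKM in NT cells with DMSO and 0.21 and 0.16 FPKM with TPL. TAM cells had 2.08 and 1.28 FPKM with DMSO and 0.9 and 0.85 FPKM with TPL. It fell in NT (-4.92 ± 0.35, adjusted p = 0.000297) and in TAM cells (-0.98 ± 0.30, 0.0428), and the difference of 3.94 ± 0.45 passed an adjusted p of 0.05 (0.0425). The call was lost with any single library left out (adjusted p between 0.0535 and 0.197), with the replicate block (0.096), with scaling to equal GAPDH (0.053) and with limma on log2(FPKM + 0.1) (0.0533). Beside it, PLEKHA6 had -0.17 in NT and 3.604 in TAM cells.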

How the data were processed

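RNA-Seq and RNAPII ChIP-Seq were compared between NT and TAM cells with DMSO or TPL. Per gene, the authors estimated expected counts (RSEM, from poly-A RNA reads aligned with Bowtie2) and deposited them without normalization. The FPKM values, also from RSEM, were deposited by the authors per kilobase of transcript and scaled to mapped fragments. The peak lists hold positions the authors obtained from ChIP reads aligned to hg19 (SOAP2) and called over input with MACS (1.4.2 per the labels); 85.5% to 91.0% of the listed peaks hold a TSS of the annotation used here; how the 2 replicates entered each list, and whether RNA reads were counted by strand, are not given in the sources used here. A gene with no read in a library is missing from its file and was set to 0, and positions, which count from 0, were changed to count from 1.

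Expected counts were rounded and fitted with edgeR 4.0.16 in R 4.3.3 (TMM, filterByExpr with the groups, quasi-likelihood test, p adjusted by Benjamini-Hochberg over 16948 genes) as 4 groups of 2 libraries that share their spread (biological coefficient of variation 0.315, replicate r of log2 CPM 0.908 to 0.941). The calling thresholds are those of the study. The edgeR fit was also run on simulated counts with planted changes, which checks the code and none of the values reported. The 23604 genes were named by gene ID (21077) or transcript accession (2382) from RefSeq tables, and 145 were not matched. TSSs came from GENCODE 44 mapped to build 37, the sequences from the same build, and a gene's canonical TSS from its annotated tag.

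The 5 genes and the 6 lists were chosen with earlier results of these data known. Named besides them are the 3 genes most correlated with each, up to 3 per list with the smallest p among those past an adjusted p of 0.05, and any listed gene past it for the difference. DESeq2 1.42.0, limma 3.58.1 on log2(FPKM + 1) and log2(FPKM + 0.1), other scalings, filters, a replicate block and leaving out each library were alternatives. ChIP and RNA replicates are separate cultures per the study, 2 per group, which limits precision.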

Additional observations from a re-analysis of the deposited data

Results flagged for a closer look

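NEDD4L and SDCBP2 were flagged because their TPL changes were opposite in NT and TAM cells, with no overlap between TPL and DMSO libraries in either. This held for 3.03% of genes, and these values chose the 2 genes. The difference between the log2 changes, TAM minus NT, was -2.71 for NEDD4L and 2.15 for SDCBP2, and it was not tested because it chose the genes. PLEKHA7, from the list of PLEKHA and apical junction genes, differed between the states in its TPL change by 3.94 on the log2 scale (edgeR, adjusted p = 0.0425, 2 libraries per group). The call was lost in all 8 fits that left out a library (0.0535 to 0.197), with the replicate block (0.096), with scaling to equal GAPDH (0.053) and with limma on log2(FPKM + 0.1) (0.0533). Its level in the NT + TPL libraries rested on as few as 6 expected counts.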

How the results depend on the processing

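For the 5 genes, the difference between the TPL changes kept its sign under all alternatives run. The same libraries chose the genes for this difference, so the kept sign is a description only. Scaling to equal GAPDH gave -2.47 for NEDD4L, 2.01 for MLKL and -1.57 for WWC1, and limma on log2(FPKM + 1) gave -2.48 for NEDD4L and 1.497 for MLKL; that scale understates changes of low values. The average TPL change of SDCBP2, near 0, turned to 0.0097 with scaling by library size, 0.0446 with at least 10 counts in every library and 0.0152 with limma on log2(FPKM + 1), none past the threshold. TAM against NT lost its call for NEDD4L (1.14) and WWC1 (0.87) when scaled to equal GAPDH, which lowered the median of all genes by 0.35, and for WWC1 with limma on log2(FPKM + 1), which gave 1.19, under the size of 1.2.

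With 1 library left out, TAM against NT ranged from 1.44 to 1.58 for NEDD4L, -2.23 to -1.96 for PLEKHA6, 1.79 to 1.88 for MLKL, 1.995 to 2.20 for SDCBP2 and 1.16 to 1.27 for WWC1. TPL averaged over the states ranged from 1.60 to 1.85 for PLEKHA6 and -0.120 to 0.0815 for SDCBP2 (positive without NT + TPL replicate 2, 0.0815, and without TAM + TPL replicate 1, 0.0190); PLEKHA6 lost its call in 6 of these 8 fits. In these fits the lone sample is assumed to vary like the other groups.

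Replicate numbers did not pair the libraries: deviations of same-numbered libraries correlated between -0.135 and 0.0501. With the replicate block, WWC1 lost its call for TAM against NT (1.22) and no other call on the 5 genes changed, listed genes called at the stricter rule went to 0 in both states and directions, and 0 listed genes passed an adjusted p of 0.05 as higher for the difference. With the NT + TPL numbers crossed, chosen after seeing the data, the block left 0 higher and 1 lower listed gene at the stricter rule in NT cells.

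Counts of listed genes depended more on the settings. The shares of all genes under each alternative, the replicate block included, are not given here, so nothing about the lists is read from these counts. At the stricter rule DESeq2 gave 21 lower in NT cells, 3 higher and 19 lower in TAM cells, and 2 higher for the difference; at an adjusted p of 0.05 it gave 5 higher and 2 lower for the difference. At least 10 counts in every library gave 18 lower in NT and 2 higher and 12 lower in TAM cells, and DESeq2's size factors, no filter and limma on either scale gave 2 higher in TAM cells. Scaled to equal GAPDH, 0 were higher in NT, 0 higher and 3 lower in TAM cells at the stricter rule, 6 higher in NT and 5 higher in TAM cells at 0.05, and 0 passed for the difference, as with limma on log2(FPKM + 0.1). No filter gave 5 higher in TAM cells at 0.05. With 1 library left out, the stricter rule called 0 to 1 higher and 0 to 2 lower genes in NT and 0 to 1 higher and 0 to 7 lower in TAM cells; at 0.05, 4 to 10 were higher and 23 to 37 lower in NT, 3 to 9 higher and 16 to 29 lower in TAM cells, and 0 to 1 higher and 0 to 1 lower for the difference. Where an alternative changed a value, the cause was not tested. For RNAPII, the 2 genes with a peak over any TSS in NT + TPL went to 0 at the canonical TSS.

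Depth allows at least 67 expected counts for the 5 genes in each library; 2 libraries per group limit the precision more.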

Other observations

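AMOTL2, a listed Hippo gene whose protein binds YAP1, was looked at after its values were seen. It went from a mean of 72.3 FPKM to 20.4 FPKM with TPL in NT cells and from 12.4 FPKM to 12.5 FPKM in TAM cells, and its log2 change with TPL was -1.84 in NT (adjusted p = 0.00132, edgeR) and -0.04 in TAM cells (0.911). The difference of 1.80 had an adjusted p of 0.114 and did not pass. STK3, a Hippo kinase gene also chosen after its values were seen, had a difference of 1.48 with the same adjusted p. SCNN1A, the α subunit of the epithelial sodium channel, was also chosen after its values were seen. It was lower in TAM than in NT cells averaged over DMSO and TPL (log2 -1.46, adjusted p = 0.00148, edgeR). It did not pass the calling rule, which asks for an adjusted p of at most 0.001.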
